A study of Mus musculus with 12 samples.

Results

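The genes described here are Pomc, which encodes the precursor of adrenocorticotrophic hormone (ACTH), and 8 genes whose products turn that precursor into peptides or regulate the enzymes that do so. They were taken by symbol, as Pomc, Pcsk1, Pcsk2, Pcsk1n, Scg5, Cpe, Pam, Furin and Ctsl, and are 9 of the 55304 genes listed. All 9 were among the 24736 genes tested, those above 0.1 normalised counts in at least 3 libraries. The 12 libraries held RNA of eGFP positive cells sorted from the dissociated anterior pituitary of male mice of the genotype labelled POMC-GFP, aged 8 weeks at the start, and each group had 3 libraries. Control mice drank water, mice of the DEX group had dexamethasone, a synthetic glucocorticoid, at 2.5 µg/ml in their drinking water for 4 weeks, and the other 2 groups had the same treatment followed by 7 days (1 week) or 28 days (4 weeks) without it. All groups, the control included, carried the transgene, in which the Pomc promoter drives the fluorescent protein used for the sort, so the main gene of this report and the sort marker share a promoter. A replicate is a pool of sorted cells of up to 3 mice, and p-values measure the spread between pools. Beyond the labels, nothing ties pool 1 of a group to pool 1 of another.

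Pomc is translated as one long precursor that corticotrophs of the anterior pituitary cut after pairs of basic residues. The convertase encoded by Pcsk1 releases ACTH and beta-lipotropin, and the one encoded by Pcsk2, which is typical of the melanotrophs of the intermediate lobe, cuts further to alpha-melanocyte stimulating hormone and beta-endorphin. Cpe then removes the basic residues that remain at the ends, and Pam amidates peptides that end in glycine. Glucocorticoids are textbook repressors of Pomc transcription in corticotrophs.

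The stretch of the Pomc reading frame that these enzymes act on is shown first, because it holds the sites that join the genes of this report. It lies on chromosome 12 of GRCm38 at chr12:3960124-3960372 on the plus strand, within exon 3 of 3 of the GENCODE transcript ENSMUST00000020990.6, whose reading frame has 235 codons. It runs from the pair of basic codons before ACTH to the pair before beta-endorphin, and capitals mark each run of neighbouring Lys or Arg codons.
Pomc coding stretch: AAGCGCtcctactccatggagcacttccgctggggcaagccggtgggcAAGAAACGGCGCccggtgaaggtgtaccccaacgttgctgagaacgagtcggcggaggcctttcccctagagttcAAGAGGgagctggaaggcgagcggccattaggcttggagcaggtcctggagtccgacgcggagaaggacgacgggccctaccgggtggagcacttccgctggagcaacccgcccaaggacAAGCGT
These 249 bases held 4 of the 7 runs of basic codons in the reading frame. The second run in the stretch lies inside ACTH, and the third separates ACTH from beta-lipotropin.

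The upstream windows of Pomc and Pcsk1 are shown because the prohormone and its main convertase are the genes most of the results turn on. They come from RefSeq on GRCm38.p6, plus strand, and stop before the first annotated base of the gene. The Pomc window is chr12:3954695-3954944 and the Pcsk1 window is chr13:75089607-75089825. Capitals mark matches on either strand to TGACGTCA (the cyclic AMP response element), TGACG (its first part), AAGGTCA (a nuclear receptor element), CANNTG (the E-box), AGAACA (part of the glucocorticoid receptor element) and TATAAA.
Pomc: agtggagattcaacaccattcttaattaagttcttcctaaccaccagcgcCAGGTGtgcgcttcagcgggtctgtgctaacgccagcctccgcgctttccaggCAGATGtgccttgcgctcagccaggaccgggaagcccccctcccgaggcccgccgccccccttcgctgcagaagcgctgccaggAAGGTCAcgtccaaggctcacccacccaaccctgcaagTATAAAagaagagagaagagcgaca
Pcsk1: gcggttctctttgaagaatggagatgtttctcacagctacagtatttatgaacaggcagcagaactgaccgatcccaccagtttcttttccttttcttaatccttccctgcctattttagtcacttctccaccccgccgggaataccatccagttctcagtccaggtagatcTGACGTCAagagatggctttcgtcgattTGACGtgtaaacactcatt
The full element TGACGTCA was found in the Pcsk1 window only among the 8 genes with a RefSeq promoter, and 1.8% of all 32544 promoters of 300 bases held it. Each match to it also holds TGACG on both strands, and a further TGACG stood closer to the end of the window. The letters AAGGTCA stood 63 bases before the RefSeq start of Pomc and in 4.71% of all promoters. AGAACA was in neither window and in 18.9% of all promoters, TATAAA in 13.6%, TGACG in 20.9% and CANNTG in 72.3%. A match describes the letters and does not show binding.

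Levels of the deposited values are normalised counts, that is CPM of a library size corrected for composition. Reads on genes ranged from 7719894 to 12848078 per library, and 1 read was worth 0.0787 to 0.127 normalised counts. The library of 1-week pool 2 had the lowest scaling factor, 0.702, against 0.863 to 1.21 in the others. The defining melanotroph marker Pax7 was at 0.34 normalised counts or less in all 12 libraries. Growth hormone (Gh) took 8.2% to 22.9% of the reads and prolactin (Prl) 3.5% to 10.3%, so RNA of other hormone cells was present in every library. In bulk samples fewer cells of a type and less RNA per cell cannot be told apart.

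Pomc had the largest differences between groups of the 9 genes. Its normalised counts were 74260, 34562 and 74221 in control pools 1, 2 and 3, and 4362, 8521 and 4241 in the DEX pools. In the 1-week pools they were 149459, 284740 and 43612, and in the 4-week pools 49562, 48189 and 80216. All 3 DEX pools lay below every other library, 1-week pools 1 and 2 lay above every other library, and 1-week pool 3 lay within the control range, as did 2 of the 3 pools at 4 weeks.

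As a share of the reads on genes, Pomc took 8.25% (Wilson 95% interval 8.23 to 8.26), 3.80% (3.79 to 3.81) and 6.82% (6.81 to 6.84) in control pools 1 to 3. The DEX pools had 0.529% (0.525 to 0.534), 0.997% (0.991 to 1.00) and 0.454% (0.45 to 0.459). The 1-week pools had 15.0%, 19.997% and 4.33%, and the 4-week pools 5.07%, 4.56% and 6.92%. The intervals cover counting error only and were far narrower than the distance between pools of a group. Pomc was the most abundant gene in 1-week pools 1 and 2, and it ranked between 2 and 3 in the control pools and between 4 and 9 in the DEX pools.

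Pomc had a log2 fold change of -3.41 (SE 1.10) in DEX against control, 10.7-fold lower. At 1 week it was 1.09 (SE 1.10) against control and 4.51 (SE 1.10) against DEX, and at 4 weeks 0.0027 against control and 3.42 against DEX. The difference of 1 week from control was 0.49 without 1-week pool 2 and 1.84 without 1-week pool 3, and that of 4 weeks from control was -0.36 without control pool 2 and 0.19 without control pool 1. In the limma model of all genes Pomc had an adjusted p of 0.223 in the F test across the 4 groups, which 0.315% of all genes passed, and of 0.424 in DEX against control, 0.0842 in 1 week against DEX and 0.204 in 4 weeks against DEX. The same reads in edgeR's quasi-likelihood test gave adjusted p values of 0.01 for the F test, 0.0418 for DEX against control, 0.00438 for 1 week against DEX and 0.0202 for 4 weeks against DEX, so Pomc was called there in all 4. That test called 165 genes in the F test, 0.667% of all genes, and 0.182%, 0.586% and 0.865% in those 3 contrasts.

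The calls differed with the spread given to Pomc and also with other settings, listed in the last section. Its own residual SD over the 12 libraries was 0.84 on the log2 scale, the trend over genes gave 1.73 at its level, and the model used 1.35. Moderation without the trend had 0.53 in place of 1.73, and called Pomc only in 1 week against DEX. With robust moderation the SE was 0.54 in place of 1.10 and the adjusted p for DEX against control 0.0159. Without 1-week pool 3, in which several corticotroph markers were also low, Pomc at 1 week stood 5.25 above DEX on the log2 scale, with a limma adjusted p of 0.0243.

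**Figure D1:**
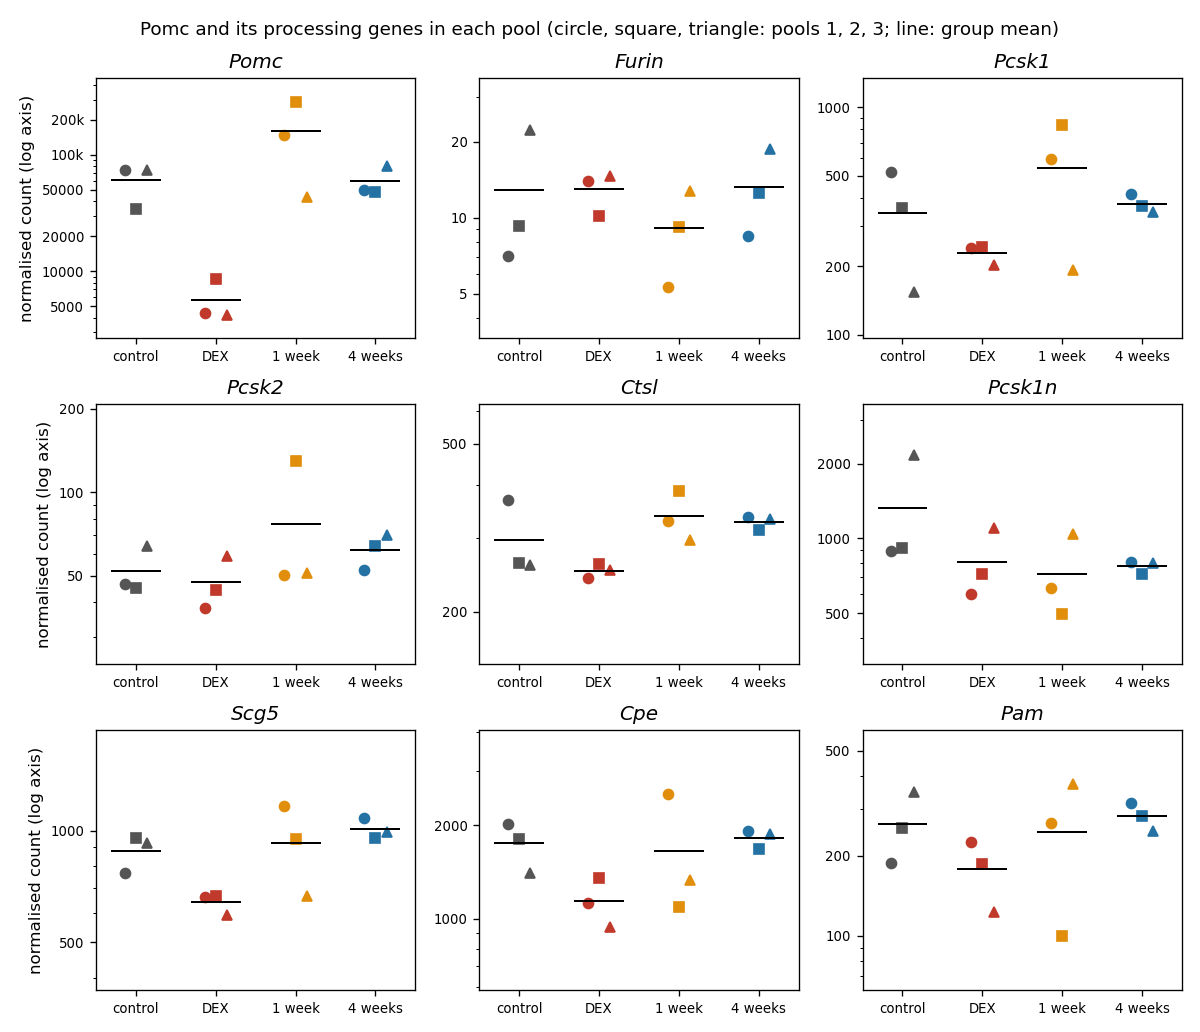
Normalised counts of the 9 genes (log axis, a separate scale for each gene) in the 12 libraries by group, with circles, squares and triangles for pools 1, 2 and 3 and a line for the group mean. The 3 DEX pools of Pomc, 4241 to 8521, lie below all 9 other libraries. In the other genes the groups overlap or stand apart by less than in Pomc, as Scg5 at 593 to 665 in DEX and 952 to 1082 at 4 weeks.

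Of the 9 genes, 0 were called by limma in the F test or in any of the 6 contrasts. An unadjusted p under 0.05 was reached by 1 of 9 in the F test, 1 of 9 in DEX against control, 1 of 9 in 1 week against DEX, 2 of 9 in 4 weeks against DEX, and 0 of 9 in the remaining contrasts. Of all genes 9.21% reached that threshold in the F test, 6.8% in DEX against control, 10.8% in 1 week against DEX and 9.94% in 4 weeks against DEX, so 1 of 9 is near the background. Adjusted calls among all genes were 0.121% in DEX against control, 0.433% in 1 week against DEX, 0.873% in 4 weeks against DEX, and 0% in 1 week against control, 4 weeks against control and 4 weeks against 1 week. In DEX against control 8 of the 9 genes had a negative log2 fold change, with a median of -0.46 beside -0.02 over all genes. In 4 weeks against DEX 7 of 9 were positive, with a median of 0.66 beside 0.0021.

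The order of groups was also read without a model. In DEX all 3 pools lay below all 3 control pools for Pomc, Scg5 and Cpe, 3 of 9, and for 6.23% of all genes. At 1 week all pools lay above all DEX pools for Pomc, Scg5 and Ctsl, 3 of 9 against 6.97% of all genes, and at 4 weeks for Pomc, Pcsk1, Scg5, Cpe, Pam and Ctsl, 6 of 9 against 9.8%. Above control the pools stood apart at 1 week for 0 of 9 (3.47% of all genes) and at 4 weeks for 0 of 9 (6.77%), and at 4 weeks 1 of 9, Pcsk1n, lay below control in all pools, against 6.42%. In RPM without the composition scaling these counts were 2 of 9 for DEX below control (Pomc and Scg5, beside 4.33% of all genes), 1 of 9 for 1 week above DEX (Pomc, beside 2.84%), 4 of 9 for 4 weeks above DEX (Pomc, Pcsk1, Scg5 and Cpe, beside 5.11%) and 1 of 9 for 4 weeks below control (Pcsk1n, beside 9.42%). On that scale the median of all genes moved by 0.11 in DEX against control, -0.3 in 1 week against DEX and -0.25 in 4 weeks against DEX.

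**Figure D2:**
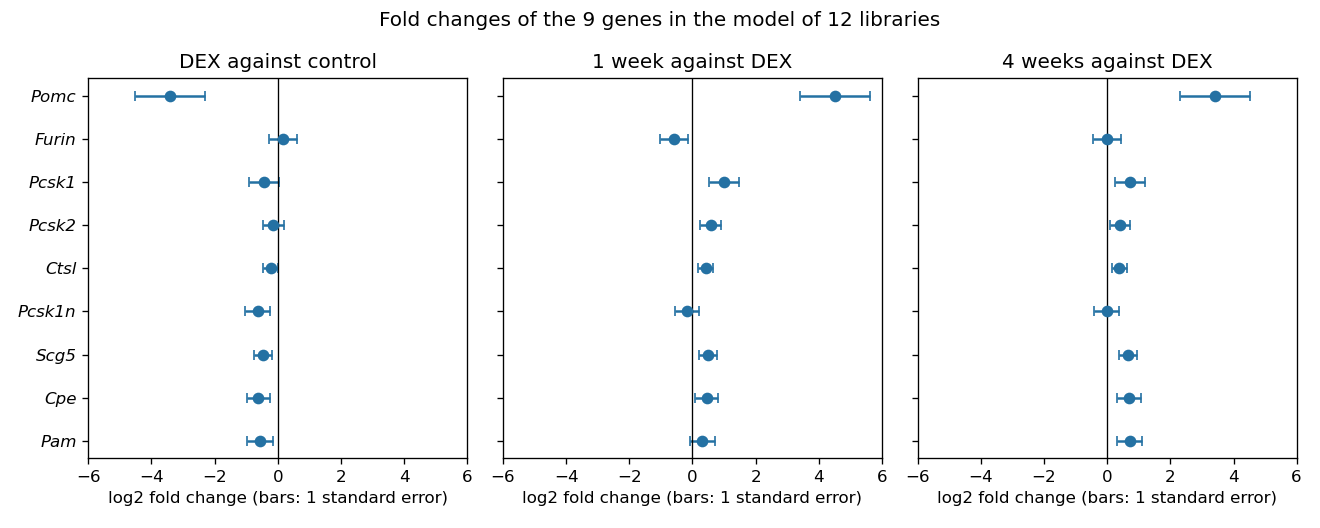
Log2 fold changes of the 9 genes with 1 standard error in DEX against control, 1 week against DEX and 4 weeks against DEX, from the limma model of 12 libraries. Pomc lies at -3.41, 4.51 and 3.42, while the other 8 genes lie between -0.63 and 1.00.

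Among the endoproteases, Pcsk1 is the convertase of corticotrophs. Its normalised counts were 521, 359 and 155 in the control pools and 242, 244 and 202 in the DEX pools. They were 595, 837 and 193 in the 1-week pools and 417, 367 and 348 in the 4-week pools. The DEX pools were close to each other, inside the wide control range, and below every 4-week pool. Pcsk1 was high in the same 1-week pools, 1 and 2, in which Pomc was high, and low in pool 3. The log2 fold change was -0.43 (SE 0.47) in DEX against control, 1.00 (SE 0.47) in 1 week against DEX and 0.72 in 4 weeks against DEX. limma's adjusted p for 1 week against DEX was 0.465, and 2 of the 15 alternatives called it. Without 1-week pool 3 that difference was 1.63, and without 1-week pool 2 it was 0.57. The difference of DEX from control was -0.92 without control pool 3 and -0.04 without control pool 1.

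Pcsk2, the convertase that completes melanotroph processing, was at 46.7, 45.0 and 64.2 normalised counts in the control pools and 38.3, 44.5 and 59.1 in the DEX pools. In the 1-week pools it was at 50.4, 130 and 51.1, and in the 4-week pools at 52.2, 64.0 and 70.1. One library, 1-week pool 2, stood above all others, and the remaining 11 libraries overlapped between groups. Its log2 fold change was -0.14 (SE 0.33) in DEX against control and 0.58 (SE 0.33) in 1 week against DEX, and the latter was 0.13 without 1-week pool 2. The former was 0.02 without control pool 3 and -0.31 without DEX pool 3. The melanotroph marker Oacyl was also highest in that library, at 20.01 against 0.449 to 6.01 elsewhere. Of the other melanotroph markers there, Pax7 was at 0.255, Drd2 at 25.1 and Megf11 at 7.26. Over all 12 libraries Drd2 ranged from 16.9 to 66.8 and Megf11 from 1.88 to 7.28. The part of these markers in the Pcsk2 value was not tested. Pcsk2 overlaps 2 genes of the opposite strand, Pcsk2os1 (10.6 to 20.9) and Pcsk2os2 (5.33 to 24.9), whose reads the library kit does not separate by strand, so part of the Pcsk2 count is uncertain.

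Furin, the convertase of the constitutive secretory pathway, was the lowest of the 9 genes. Furin was at 7.08, 9.31 and 22.3 normalised counts in the control pools, 13.998, 10.1 and 14.7 in the DEX pools, 5.32, 9.18 and 12.8 at 1 week and 8.50, 12.6 and 18.8 at 4 weeks. All groups overlapped, the values rest on 56 to 208 reads per library, and the log2 fold change in DEX was 0.17 (SE 0.44), or 0.65 without control pool 3, the highest library, and -0.17 without control pool 1.

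Ctsl encodes cathepsin L, a cysteine protease that can also cut prohormones in secretory vesicles. Its normalised counts were 368, 261 and 258 in the control pools, 240, 259 and 251.3 in the DEX pools, 329, 388 and 296 at 1 week and 336, 312 and 332 at 4 weeks. The DEX pools overlapped the control pools narrowly and lay below all 6 pools after withdrawal. Its log2 fold change was -0.22 (SE 0.24) in DEX against control, 0.42 (SE 0.24) in 1 week against DEX and 0.38 (SE 0.24) in 4 weeks against DEX. Without control pool 1 the difference of DEX from control was -0.05. Ctsl had the narrowest range of the 9 genes, 1.61-fold from the lowest library to the highest, against 67.1-fold for Pomc.

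The next pair of genes act on the convertases. Scg5 encodes 7B2, the chaperone that the Pcsk2 convertase needs for its activation. It was at 768, 953 and 924 normalised counts in the control pools, 661, 665 and 593 in the DEX pools, 1164, 951 and 665 at 1 week and 1082, 952 and 994 at 4 weeks. The DEX pools were the lowest 3 of the 12 libraries, with 1-week pool 3 at 665.4 next to the highest DEX pool at 665.0. The log2 fold change was -0.46 (SE 0.29) in DEX against control and 0.66 (SE 0.29) in 4 weeks against DEX, with limma adjusted p values of 0.83 and 0.453.

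Pcsk1n encodes proSAAS, the precursor of an inhibitor of the Pcsk1 convertase. It was at 890, 914 and 2160 normalised counts in the control pools, 596, 722 and 1099 in the DEX pools, 631, 500 and 1039 at 1 week and 806, 720 and 801 at 4 weeks. Pool 3 was the highest of its group in control, DEX and 1 week, and in those groups it was also the pool with the lowest Pcsk1. Against control the log2 fold changes were -0.63 (SE 0.39) in DEX, -0.81 (SE 0.39) at 1 week and -0.64 (SE 0.39) at 4 weeks. Without control pool 3 they were -0.21, -0.39 and -0.22, so these differences rested largely on that library.

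Cpe encodes carboxypeptidase E, which trims basic residues. Its normalised counts were 2026, 1814 and 1407 in the control pools, 1126, 1355 and 938 in the DEX pools, 2535, 1087 and 1333 at 1 week and 1921, 1680 and 1880 at 4 weeks. The highest DEX pool, 1355, lay just below the lowest control pool, 1407, and the 1-week pools spanned both groups. For Cpe the log2 fold change was -0.62 (SE 0.37) in DEX against control and 0.69 (SE 0.37) in 4 weeks against DEX, with limma adjusted p values of 0.821 and 0.592.

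Pam encodes the amidating enzyme. It was at 188, 256 and 349 normalised counts in the control pools, 225, 186 and 123 in the DEX pools, 267, 99.3 and 373 at 1 week and 318, 284 and 249 at 4 weeks. The lowest library was 1-week pool 2, in which Pomc was highest, and the highest was 1-week pool 3. For Pam the log2 fold change was -0.57 (SE 0.40) in DEX against control and 0.71 (SE 0.40) in 4 weeks against DEX. Without DEX pool 3 these were -0.32 and 0.47. Pam shares its strand and span with B230216N24Rik (4.15 to 57.5 normalised counts) and Gm37140 (0.673 to 20.3), so reads near them are uncertain.

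Compared per kilobase of exon, Pomc exceeded its enzymes by far in every group. In control pools it had 46293 ± 17381 normalised counts per kb (SD, n = 3), followed by Cpe at 670 ± 121, Pcsk1n at 603 ± 331 and Scg5 at 562 ± 63.5. Pcsk1 followed at 61.6 ± 32.8, Ctsl at 45.6 ± 9.67, Pam at 22.2 ± 6.79, Pcsk2 at 6.57 ± 1.34 and Furin at 1.40 ± 0.895. The pools of Cpe, Pcsk1n and Scg5 overlapped each other, as did those of Pcsk1 with Ctsl and with Pam, so their order is within the spread. The order also depends on the lengths used, unions of all annotated exons from 1318 bases for Pomc to 11892 for Pam. Which transcripts were present was not determined. In the DEX pools Pomc was at 4331 ± 1849 per kb (SD, n = 3) and still above Cpe, at 437 ± 80.2 per kb.

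Within a library the ratio of a gene to Pomc does not depend on library scaling. Pcsk1 was at 0.701%, 1.04% and 0.208% of Pomc in the control pools and 5.54%, 2.87% and 4.77% in the DEX pools. At 1 week it was at 0.398%, 0.294% and 0.443%, and at 4 weeks at 0.841%, 0.761% and 0.434%. The DEX pools stood above all others, and the 1-week pools lay within the control range.

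All 8 ratios to Pomc were higher in every DEX pool than in every control pool. The differences ranged from 6.88-fold for Pcsk1n to 11.9-fold for Furin, each with a two-sided exact permutation p of 0.1, the smallest that 3 pools against 3 allow, and 0.412 after Benjamini-Hochberg adjustment over 33 ratio tests. The 8 ratios share Pomc as denominator and are not independent. The share of all genes with a ratio to Pomc set apart in this way was not counted. Pomc itself was at 8521 or less in the DEX pools and at 34562 or more in the control pools. A gene that changed little between these groups would therefore also have a higher ratio, so the 8 ratios largely restate the fall in Pomc. At 1 week and at 4 weeks all 8 overlapped control, with exact p values of 0.2 to 0.5 and 0.3 to 1. Between partners the ratios overlapped as well: Pcsk2 to Pcsk1 differed from control by 0.28 on the log2 scale in DEX (exact p 0.7), Pcsk1n to Pcsk1 by -0.21 (exact p 0.9) and Scg5 to Pcsk2 by -0.32 (exact p 0.5).

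**Figure D3:**
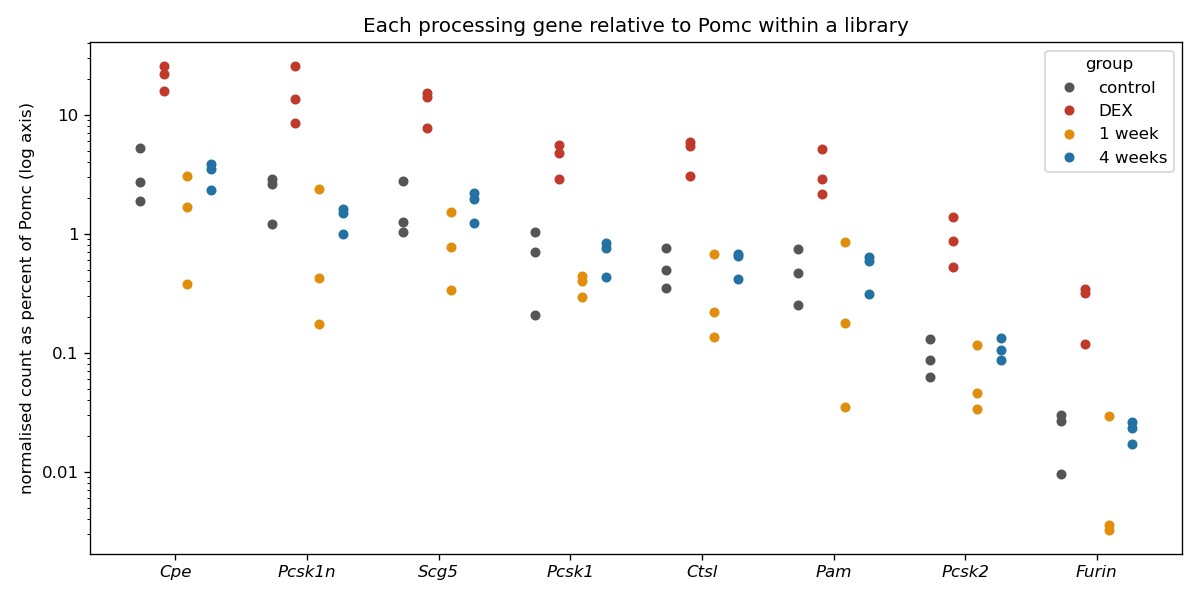
Normalised count of each of the 8 processing genes as a percent of Pomc in the same library (log axis), coloured by group. For every gene the 3 DEX pools lie above the 9 other libraries, as for Pcsk1 at 2.87% to 5.54% against 0.208% to 1.04%.

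Across the 12 libraries the log2 level of Ctsl was the most like that of Pomc among the 8 genes, with Pearson r of 0.81 and Spearman rho of 0.81. Scg5 had r of 0.77, Pcsk1 0.64, Pcsk2 0.60 and Cpe 0.53, while Pam had 0.11, Pcsk1n -0.08 and Furin -0.31. With each group's mean taken off, r was 0.63 for Ctsl, 0.61 for Pcsk2, 0.58 for Pcsk1, 0.50 for Scg5 and 0.05 for Cpe. It was -0.13 for Furin, -0.33 for Pcsk1n and -0.62 for Pam. Without DEX pools 1 and 3, the libraries farthest from the median of Pomc, r was 0.71 for Ctsl, 0.69 for Pcsk2, 0.60 for Pcsk1, 0.58 for Scg5, 0.08 for Cpe, -0.14 for Furin, -0.20 for Pcsk1n and -0.31 for Pam. The points share groups, depth and scaling, and these values are descriptions with no test.

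Many genes outside the list followed Pomc more closely. Of 9539 other genes with a mean of at least 10 normalised counts, 74 had an r at least that of Ctsl and 385 at least that of Pcsk1. The 10 with the highest r were Cd63, a tetraspanin of endosomes and lysosomes (0.95), Il18bp, a soluble cytokine-binding protein (0.95), Nmb, the neuropeptide neuromedin B (0.94), Gm28902 (0.93), Resp18, a protein of neuroendocrine secretory granules (0.91), Pbxip1 (0.91), the phosphatase gene Dusp14 (0.91), the metallothionein gene Mt3 (0.90), the iron regulator gene Hfe (0.90) and the ribosomal protein gene Rpl4 (0.89). Of these 10, 1 passed the limma F test, which 0.315% of all genes passed. The 10 were chosen by their r with Pomc in the same 12 libraries. That choice favours genes that differ between groups, so the F test is not independent of it. The gene that passed was Nmb, with an adjusted p of 0.000707. Its mean normalised count was 14.8 for control, 1.98 for DEX, 89.3 a week after withdrawal and 16.7 after 4 weeks.

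The libraries also differed in markers of cell types. The summed level of 5 corticotroph markers was 437 to 916 normalised counts in the control pools, 756 to 1897 in the DEX pools, 149 to 748 at 1 week and 252 to 419 at 4 weeks. The DEX and control ranges overlapped, and the members of the list differed in sign between them. Tbx19, the corticotroph transcription factor that activates Pomc, was at 459, 229 and 218 in the control pools and 769, 498 and 1490 in the DEX pools, with a log2 fold change of 1.55 and a limma adjusted p of 0.685. The log2 fold change in DEX against control was 1.87 for Avpr1b, the vasopressin receptor, -0.61 for Crhr1, the receptor for corticotrophin releasing hormone, -0.26 for the glucocorticoid receptor gene Nr3c1 and 0.0072 for Neurod1. In 1-week pool 3 Tbx19 was at 39.5, Crhr1 at 12.5 and Avpr1b at 1.56, the lowest of all 12 libraries in each case, while Pomc was at 43612.

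Of the 5 corticotroph markers 0 were called by limma in the F test or any contrast, and 2 had an unadjusted p under 0.05 in the F test, beside 9.21% of all genes. The 4 melanotroph markers summed to 25.7 to 74.5 over all libraries. Drd2, at 16.9 to 66.8, was the largest part of that sum in every library, while Pax7 was at 0.34 or less. The 9 genes of other hormone cells summed to 113884 to 308510 in control, 117281 to 175731 in DEX, 139753 to 337163 at 1 week and 244914 to 393246 at 4 weeks. Of the 9, limma called 1 (Tshb), higher at 4 weeks than in DEX, beside 0.873% of all genes. All 4-week pools also lay above all DEX pools for Gh, Prl, Cga and Ghrhr, as for 9.8% of all genes. The pools of Fshb, Lhb, Pou1f1 and Nr5a1 overlapped between these groups, and Lhb was at 0.164 or less throughout. The 12 markers of non-endocrine cells summed to 53.4 to 163 in control and 22.2 to 36.0 in DEX. Their sums were 97.9 to 175 at 1 week and 168 to 298 at 4 weeks. The limma model called 1 of 12 lower in DEX than in control (Cd74), beside 0.121% of all genes. It called 3 higher at 1 week than in DEX and 4 higher at 4 weeks than in DEX, beside 0.433% and 0.873%. An unadjusted p under 0.05 was reached by 3, 7 and 10 of the 12 in these contrasts, beside 6.8%, 10.8% and 9.94% of all genes. The non-endocrine sums in DEX lay below all control pools, as Pomc, Scg5 and Cpe did, and their part in those values was not tested. Cd74 was the largest part of each control sum, at 29.6, 42.8 and 103.5 in control pools 1 to 3. It was at 3.48, 10.4 and 4.71 in DEX pools 1 to 3. All DEX pools also lay below all control pools for Kdr, Col3a1 and C1qa. The other genes of the list overlapped between these groups, and Lyz2 had a positive log2 fold change of 0.32 in DEX against control. The DEX sums of the other 3 lists overlapped control.

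**Figure D4:**
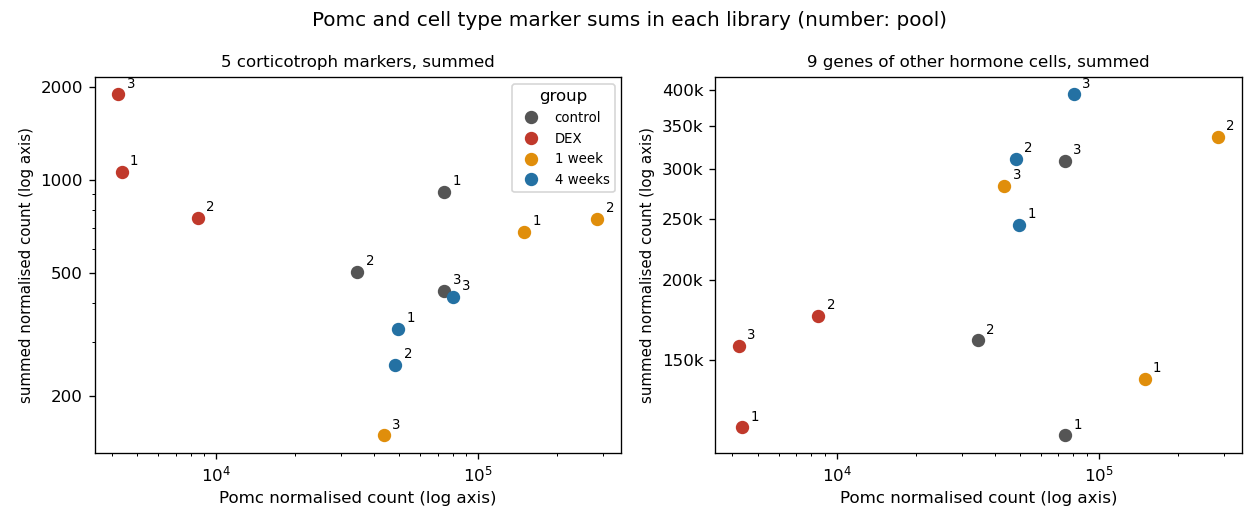
Summed normalised counts of 5 corticotroph markers (left) and 9 genes of other hormone cells (right) against Pomc in the 12 libraries (all axes log), coloured by group and numbered by pool. The 3 DEX pools combine the lowest Pomc with corticotroph sums of 756 to 1897, and 1-week pool 3 has the lowest corticotroph sum, 149.

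Other genes of prohormone maturation, 24 further proteases, peptidases, glutaminyl cyclases, tyrosine sulphotransferases, 1 protease inhibitor and genes that supply Pam with copper or electrons, were all tested. In the F test 0 of 24 were called by limma and 3 had an unadjusted p under 0.05, which 9.21% of all genes had. In DEX against control 0 were called and 1 had an unadjusted p under 0.05, beside 6.8% of all genes. The median log2 fold change was -0.07 beside -0.02 over all genes. In 1 week against DEX 5 of 24 had an unadjusted p under 0.05, beside 10.8% of all genes. In 4 weeks against DEX 4 of 24 did, beside 9.94%. In both of these contrasts limma called 1 of 24, the same gene and as higher, beside 0.433% and 0.873% of all genes. That gene was Cpz, a carboxypeptidase, at 1.97, 1.41 and 2.94 normalised counts in the control pools, 0.0828, 0.0818 and 0.673 in the DEX pools, 3.99, 3.95 and 1.78 at 1 week and 2.49, 1.97 and 2.26 at 4 weeks. Its DEX values rest on 1, 1 and 6 reads. The log2 fold change of Cpz was 3.41 (SE 0.64, limma adjusted p 0.0246) in 1 week against DEX and 2.98 (SE 0.64, limma adjusted p 0.0411) in 4 weeks against DEX.

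Among those with a mean over 10, the largest differences in DEX against control were 1.201 on the log2 scale for Serpina3n, a serine protease inhibitor, 0.59 for Mbtps1, the site-1 protease of the Golgi, and -0.59 for the convertase gene Pcsk6. Serpina3n was at 91.3, 26.0 and 8.59 normalised counts in the control pools and 66.4, 78.7 and 48.0 in the DEX pools, and at 4.00 to 29.1 in the 6 pools after withdrawal. The control pools of Serpina3n spanned the DEX pools, and its limma adjusted p in DEX against control was 0.847. Mbtps1 was at 259, 223 and 84.2 in the control pools and 232, 199 and 359 in the DEX pools, and Pcsk6 at 10.2, 20.9 and 78.3 and at 21.3, 17.7 and 13.0. Without control pool 3 the difference of DEX from control was 0.37 for Serpina3n, 0.09 for Mbtps1 and 0.22 for Pcsk6, so all 3 differences rested largely on that library.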

How the data were processed

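RNA was measured in 12 libraries, 4 groups of 3 pools. The authors trimmed reads with Trim Galore 0.6.5, aligned them to GRCm38 with STAR 2.7.1a and assigned pairs to genes by featureCounts 2.0.0. The deposited values are a normalised signal, CPM of the library size scaled by edgeR's TMM factors. The design had assumed plain CPM, and named edgeR's quasi-likelihood test in place of limma if the file held counts. The file held scaled values, so limma was kept, with the quasi-likelihood results on whole reads given beside it for Pomc. Divided by the value of 1 read, 100% of the values above 0 came out whole within 1e-06. The methods give 2 to 3 mice per pool. Deviations from the group means correlated above 0.1 in all 3 same-number pairs of control and 1 week (0.202, 0.136 and 0.397), and in no other comparison of groups. Of 36 pairs of unlike number 7 also exceeded 0.1, up to 0.38, so this is at most a weak hint of pairing from the data alone.

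Genes had to exceed 0.1 in 3 or more libraries (24736 did), and their log2(value + 0.1) was fitted in limma 3.58.1 (lmFit, eBayes with trend, R 4.3.3) with all 12 libraries in 1 model, an F test on the 3 differences from control, and p-values adjusted over all genes by Benjamini-Hochberg. An adjusted p under 0.05 was called. A fold change on this scale understates low genes. Whole reads were tested with edgeR 4.0.16 (quasi-likelihood and likelihood ratio) and DESeq2 1.42.0. The limma, voom, edgeR and DESeq2 fits were tested on simulated data. Ratios within a library were compared by two-sided exact permutation tests. Exon lengths are unions over GENCODE M21. The members and lists were chosen with earlier results of these data known. Named were all 9 members, the called genes of the maturation list and its 3 largest differences in DEX, the 10 genes with the highest r with Pomc, and marker lists by counts and sums. The counting used a strand setting, although the library kit does not mark strand.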

Additional observations from a re-analysis of the deposited data

How the results depend on the processing

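The members called were 0 in the F test and in every contrast by limma on log2(value + 0.1). The count in the F test became 1, always Pomc, with a filter above 1, with RPM without composition scaling, with array weights, with robust moderation, and, on whole reads, with voom, DESeq2 and both edgeR tests (quasi-likelihood, likelihood ratio). In DEX against control the count was 1 with robust moderation, voom, both edgeR tests and DESeq2. Those fits called 44 (robust), 46 (voom), 45 (quasi-likelihood), 270 (likelihood ratio) and 190 (DESeq2) of all genes, against 30 in the main fit. In 1 week against DEX it was 1 with the filter above 1, RPM, robust moderation, moderation without trend, voom, the quasi-likelihood test and DESeq2, and 2 with array weights and the likelihood ratio test, where Pcsk1 joined Pomc. Those 2 fits called 566 and 712 of all genes in that contrast, against 107. The fits with 1 member called 112 (filter above 1, of 16876 tested), 267 (RPM, of 24470 tested) and 125 (robust). The others called 76 (without trend), 118 (voom), 145 (quasi-likelihood) and 573 (DESeq2). In 4 weeks against DEX it was 1 with the filter above 1, array weights, robust moderation, voom, both edgeR tests and DESeq2, and in 4 weeks against 1 week it was 1 with the likelihood ratio test. For 4 weeks against DEX the main fit called 216 of all genes, against 205 (filter above 1), 1300 (array weights), 220 (robust) and 238 (voom). There 214 (quasi-likelihood), 672 (likelihood ratio) and 655 (DESeq2) were called. The likelihood ratio test called 162 in 4 weeks against 1 week, against 0 in the main fit. Moderation without trend, voom and the left-out pools for the other maturation genes were added after seeing the data. Leaving out 1 library at a time gave 0 to 1 called in 1 week against DEX, the 1 without 1-week pool 3, and 0 in the F test and the other contrasts. Without 1-week pool 3, 159 of all genes were called in 1 week against DEX. Pseudocounts of 0.5 and 1, no filter, median-ratio scaling, totals without the 10 most abundant genes and, for contrasts against control, only the 2 groups compared kept the count at 0. The log2 fold change of Pomc in DEX against control stayed between -3.78 and -3.004 over all of these. With the replicate block the count was 0 in the F test and every contrast. Over all genes the F test called 78, against 1047 with the likelihood ratio test, 1069 with array weights, 734 with DESeq2, 165 with the quasi-likelihood test, 127 with RPM, 32 without trend and 7 (without DEX pool 3) to 186 (without 1-week pool 3) with 1 library left out. It called 69 with the filter above 1, 107 with robust moderation and 93 with voom. Pools of the same number had r of -0.29 to 0.40 over 18 pairs, 7 of them over 0.1, and only control and 1 week had all 3 over 0.1. In that contrast limma called 0 genes with and without the block (unadjusted p under 0.05 in 1142 and 938), and elsewhere the numbers were not taken to pair the samples. With 1 library left out, the remaining 2 of its group share the spread of all libraries. Of the 3 pools in a group none can be judged an outlier, and amplification from little RNA adds error that depth does not show.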
